A study of Hordeum vulgare with 39 samples.

Results

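The change in gene expression from 8 to 16 days after pollination (DAP) was measured in the seed maternal tissues of developing barley (Hordeum vulgare) grains. These are the layers of the grain that derive from the mother plant. The comparison takes the 3 libraries titled as 16 DAP seed maternal tissues against the 3 titled as 8 DAP seed maternal tissues, which are 6 of the 39 libraries of the series, and covers all 83990 transcript entries of the deposited count table. All plants were of the cultivar Morex, a six-rowed spring barley, raised in a climate chamber under long days with no treatment named in the labels, and the grains were taken apart by hand. Embryo and endosperm of the same cultivar at 8 and 16 DAP (3 libraries each), and seed maternal tissues at 4 and 24 DAP (3 each), were used for comparison.

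In cereal grains the maternal layers include the pericarp (the fruit wall), the seed coat and what remains of the nucellus, the tissue in which the embryo sac forms. They pass sugars and amino acids on to the growing endosperm. In barley, much of the nucellus and of the pericarp is broken down while the endosperm fills, and part of the pericarp stays green for a time. The labels do not say which layers each dissection held. Cell types within the tissue can therefore not be followed, and in bulk tissue fewer cells of a type and less RNA per cell cannot be told apart.

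Total counts were 30844180, 28815346 and 27604777 in replicates 1, 2 and 3 at 8 DAP, and 25882919, 26616618 and 32244363 at 16 DAP. At 3 counts a gene thus had between 0.093 and 0.116 CPM, its count per 1000000 counts of the library. No table at hand pairs the identifiers with gene names or functions. Genes are therefore given by identifier, few are named, and the tissue label could not be checked against known marker genes. Of the 83990 entries, here called genes, 46462 had no count in any of the 6 libraries. A filter on low counts over the whole series left 29594 genes for testing. The 54396 that were not tested took between 0.0358% and 0.060% of the counts of these libraries.

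The libraries of a stage resembled each other more than those of the other stage. Across genes, Pearson correlations of log2(CPM + 1) ran from 0.983 to 0.995 between replicates at 8 DAP, from 0.970 to 0.990 at 16 DAP and from 0.921 to 0.937 between an 8 DAP and a 16 DAP library (genes are not independent replicates). Replicate 1 at 16 DAP stood somewhat apart from the other two of its stage, at 0.970 and 0.975. No library was a copy of another: the chi-square between the counts of 2 replicates was at least 16.6 per degree of freedom.

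The stages also differ in their library numbers, which the labels give without saying what they stand for. The 16 DAP libraries are numbered 97740, 97741 and 97742. The 8 DAP libraries are numbered 89202 and 89203 (replicates 1 and 2) and 88541 (replicate 3). No run of consecutive numbers holds maternal libraries of both stages, so stage and library-number block cannot be told apart within this tissue. In the maternal series as a whole, 4 and 8 DAP lie in the earlier blocks and 16 and 24 DAP in the later one.

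Between 8 and 16 DAP, 2718 genes rose and 2518 fell. Together they were 17.7% of the genes tested, 9.18% rising and 8.51% falling (edgeR quasi-likelihood test, Benjamini-Hochberg adjusted p under 0.05 and a change of at least 2-fold). The median change was a log2 fold change of 2.76 (6.79-fold) for risen and -2.37 (5.16-fold) for fallen genes. All 3 libraries of the higher stage lay above all 3 of the lower stage in 2421 of the risen genes (89.1%) and 2375 of the fallen (94.3%). Over all genes tested, the 3 libraries at 16 DAP lay above those at 8 DAP in 22.3%, and below them in 16.8%. Whether replicates came from separate plants is not stated, so the spread behind the p-values may be partly technical. That spread was estimated over all 39 libraries of the series, not from these 6 alone. In a fit of only the 6 libraries compared, 2377 genes rose and 2130 fell.

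Without replicate 1 at 16 DAP, 2519 genes rose and 2472 fell. A term for the library-number block lowered the counts to 498 risen and 795 fallen genes. With the term, 416 of the 2718 risen (15.3%) and 691 of the 2518 fallen genes (27.4%) kept their call. In that fit the block of the 16 DAP libraries was tied to the others through a single library, replicate 3 of the 24 DAP embryo. The sign of the change was kept in 97.1% of the risen and 96.1% of the fallen genes, and the median log2 fold changes were 2.83 and -2.24. The median standard error went from 0.64 to 1.40 for risen genes and from 0.48 to 0.96 for fallen genes.

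**Figure D1:**
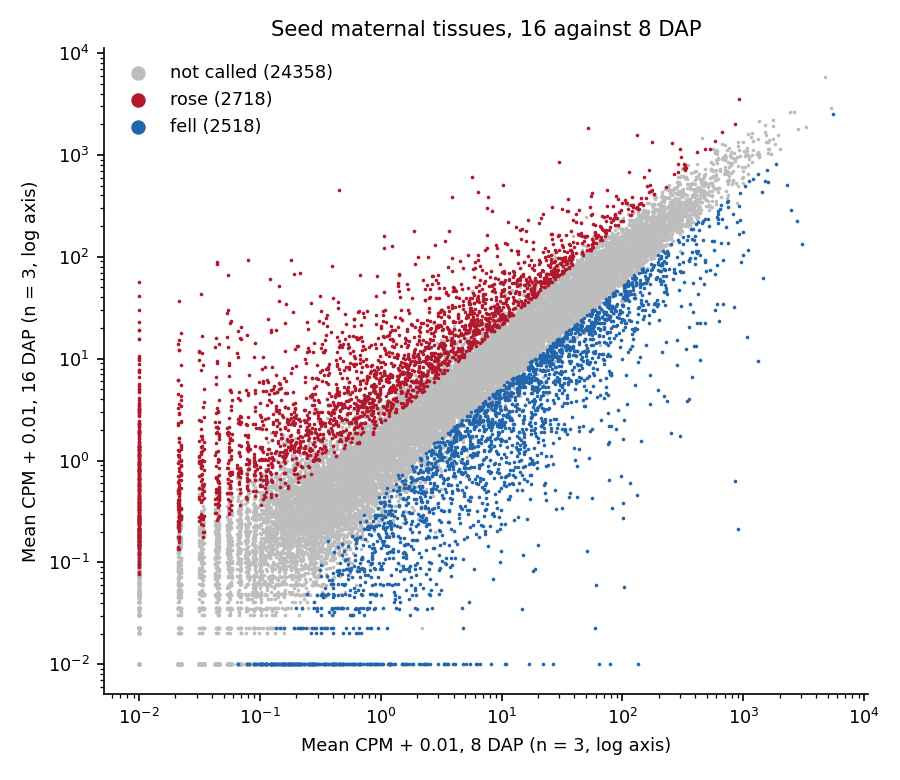
Mean CPM of each of the 29594 genes tested at 8 DAP (x axis) and 16 DAP (y axis) in seed maternal tissues, both on log axes with 0.01 added, 3 libraries each. Red points are the 2718 genes that rose, blue points the 2518 that fell, and grey points were not called. The columns and rows of points near the axes are genes with few or no counts at one stage.

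Most changes were of moderate size. Among risen genes, 874 changed by 2- to 4-fold, 1055 by 4- to 16-fold, 493 by 16- to 64-fold and 296 by more. Among fallen genes these numbers were 1019, 910, 421 and 168. For genes with few counts these fitted folds depend on the model's prior count. At most 3 counts in any 8 DAP library were found for 657 of the risen genes (24.2%), of which 311 had none. These reached a median of only 0.651 CPM at 16 DAP, and 37 of them reached 10 CPM. Of the fallen genes, 427 (17.0%) had at most 3 counts in every 16 DAP library, 259 had none, and 11 had been at 10 CPM or more at 8 DAP. The genes absent at one stage were thus mostly scarce at the other.

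Calls depended on abundance. Of the 7739 genes with a mean of 1 to 10 CPM over the 6 libraries, 14.0% rose and 11.9% fell. Of the 2412 genes at 100 CPM or more, 5.80% rose and 8.42% fell. Below 1 CPM, where counting error is largest, 7.45% rose and 5.91% fell.

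By share of the counts, the fallen genes outweighed the risen ones at 8 DAP and were outweighed at 16 DAP. Fallen genes took 15.2%, 15.7% and 14.3% of the counts of the 8 DAP libraries and 3.79%, 4.25% and 4.19% at 16 DAP. Risen genes took 2.64%, 2.54% and 3.08% at 8 DAP and 11.5%, 10.0% and 10.2% at 16 DAP. These shares describe genes chosen by the same contrast and are no test of it.

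The whole shift between the stages, summed over all entries, moved 20.2% of the counts from some genes to others. A pair of libraries from different stages differed by 21.4% to 24.4%. A pair from the same stage differed by 5.48% to 16.0%. The gain was spread over many genes. It took 523 genes to make up 50% of it, and the 10 largest gains made up 6.48%. The loss was more concentrated, with 280 genes for 50% and 9.93% in the 10 largest. Called genes carried 38.7% of the gain and 54.2% of the loss. The remainder lay in genes whose change stayed under 2-fold or did not pass the test.

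The 10 risen genes with the largest gains gained 794 to 2606 CPM each, with log2 fold changes from 1.15 to 5.06. They were at 29.7 to 923 CPM at 8 DAP and at 848 to 3529 CPM at 16 DAP. The 10 fallen genes with the largest losses lost 1038 to 2963 CPM each, with log2 fold changes from -7.20 to -1.21. In these 20 genes the libraries of the stages did not overlap. A level of 100 CPM or more at the higher stage was reached by 218 risen and 313 fallen genes.

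HORVU.MOREX.r3.6HG0609530.1 had the largest rise in log2 fold change among abundant genes. It was at 0.324, 0.243 and 0.761 CPM in the 3 libraries at 8 DAP. At 16 DAP it was at 44.8 CPM in replicate 1, 808 in replicate 2 and 516 in replicate 3. Replicate 1 was more than 10-fold below its companions, yet far above every 8 DAP library. This was a log2 fold change of 9.92 (SE 0.97, edgeR adjusted p = 1.07e-08). It was 9.21 without replicate 2 at 16 DAP and 10.53 without replicate 3 at 8 DAP. The gene stayed low at 4 DAP, with 1.05, 0.960 and 0.124 CPM, and was at 2033, 2398 and 552 CPM at 24 DAP. It also rose in embryo (log2 fold change 3.15, SE 0.74, edgeR adjusted p = 0.00193) and endosperm (2.87, SE 0.69, edgeR adjusted p = 0.00169). The maternal rise was larger by 6.77 on the log2 scale than that of the embryo (SE 1.12, edgeR adjusted p = 4.67e-05) and by 7.06 than that of the endosperm (SE 1.08, edgeR adjusted p = 2.18e-05).

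HORVU.MOREX.r3.6HG0553900.1 gained the most CPM. It had 959, 746 and 1063 CPM at 8 DAP and 3615, 3157 and 3816 CPM at 16 DAP, a log2 fold change of 1.84 (SE 0.36, edgeR adjusted p = 0.000211). The stages did not overlap, which was a condition for naming the genes of largest rise or fall. Its level was 510, 676 and 585 CPM at 4 DAP and 3584, 4095 and 3328 CPM at 24 DAP. In the embryo it had at most 1.13 CPM in any library of 8 or 16 DAP, and in the endosperm at most 19.6. Fitted with the library-number term, the gene changed by 0.95 on the log2 scale (SE 0.72, edgeR adjusted p = 0.612).

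HORVU.MOREX.r3.1HG0003780.1 had the largest fall by fitted fold. It had 170.02, 170.1 and 59.7 CPM at 8 DAP and 0 counts in all 3 libraries at 16 DAP. The fall was at least 1150-fold against a floor of 3 counts per library (edgeR adjusted p = 1.65e-08). At 4 DAP it was at most 0.0300 CPM, and at 24 DAP at most 0.200 CPM. High levels were thus found in maternal libraries of the 8 DAP stage alone. Outside the maternal tissues it reached 29.0, 19.8 and 5.91 CPM in the endosperm at 8 DAP, with 0 counts in each endosperm library at 16 DAP. Replicate 3 was the lowest library of its stage in both tissues.

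HORVU.MOREX.r3.1HG0005600.1 lost the most CPM and kept a high level. It went from 5361, 5326 and 5835 CPM at 8 DAP to 3317, 2208 and 2107 CPM at 16 DAP, without overlap (log2 fold change -1.21, SE 0.24, edgeR adjusted p = 0.000251). In the embryo it rose over the same days, from 1042, 512 and 1034 CPM to 5096, 6300 and 9353 CPM (log2 fold change 2.89, SE 0.25, edgeR adjusted p = 3.84e-10). It rose in the endosperm as well, from 263, 271 and 254 CPM to 928, 940 and 689 CPM (log2 fold change 2.14, SE 0.25, edgeR adjusted p = 3.53e-08). The maternal change differed from that of the embryo by -4.10 (SE 0.35, edgeR adjusted p = 2.78e-10) and from that of the endosperm by -3.35 (SE 0.34, edgeR adjusted p = 1.55e-08), both on the log2 scale. The library-number term gave a maternal log2 fold change of -1.27 with an edgeR adjusted p of 0.0918.

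The next question was whether the genes called between 8 and 16 DAP also differed between maternal libraries whose levels did not enter that contrast. These libraries did share its filter on low counts, its scaling and its estimate of spread. In a fit of only the 6 libraries compared, 477 of the risen and 339 of the fallen genes were not tested. At 24 against 4 DAP, 35.4% of all genes tested were called, 19.8% higher and 15.6% lower at 24 DAP. Of the 2718 risen genes, 2325 (85.5%) were higher at 24 than at 4 DAP, 16 were lower and 377 were not called. Of the 2518 fallen genes, 2088 (82.9%) were lower at 24 DAP, 33 were higher and 397 were not called. The median log2 difference between 24 and 4 DAP was 3.75 for risen genes, -2.97 for fallen genes and 0.02 for all genes tested. The 4 and 24 DAP libraries lie on the same sides of the library-number split as the 8 and 16 DAP libraries, so this comparison cannot tell stage from block either.

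Levels were followed over the full maternal course. The median level of a risen gene began at 0.352 CPM ± 0.0521 (4 DAP) and 0.656 ± 0.0705 (8 DAP), and reached 5.64 ± 0.590 (16 DAP) and 8.38 ± 0.401 (24 DAP), as the mean ± SD of 3 library medians. For a fallen gene the median began at 11.9 CPM ± 1.47 (4 DAP) and 8.66 ± 0.470 (8 DAP), and ended at 1.59 ± 0.130 (16 DAP) and 1.08 ± 0.162 (24 DAP). The values at 8 and 16 DAP entered the contrast that chose these genes, which fixes the step between them. Those at 4 and 24 DAP entered only the filter, the scaling and the estimate of spread. The median over all genes tested stayed between 3.27 and 3.82 CPM. Of the risen genes, 1683 (61.9%) had their highest maternal mean at 24 DAP and 1014 (37.3%) at 16 DAP, against 32.4% and 19.8% of all genes tested. Of the fallen genes, 1689 (67.1%) had theirs at 4 DAP and 789 (31.3%) at 8 DAP, against 35.4% and 12.3%.

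**Figure D2:**
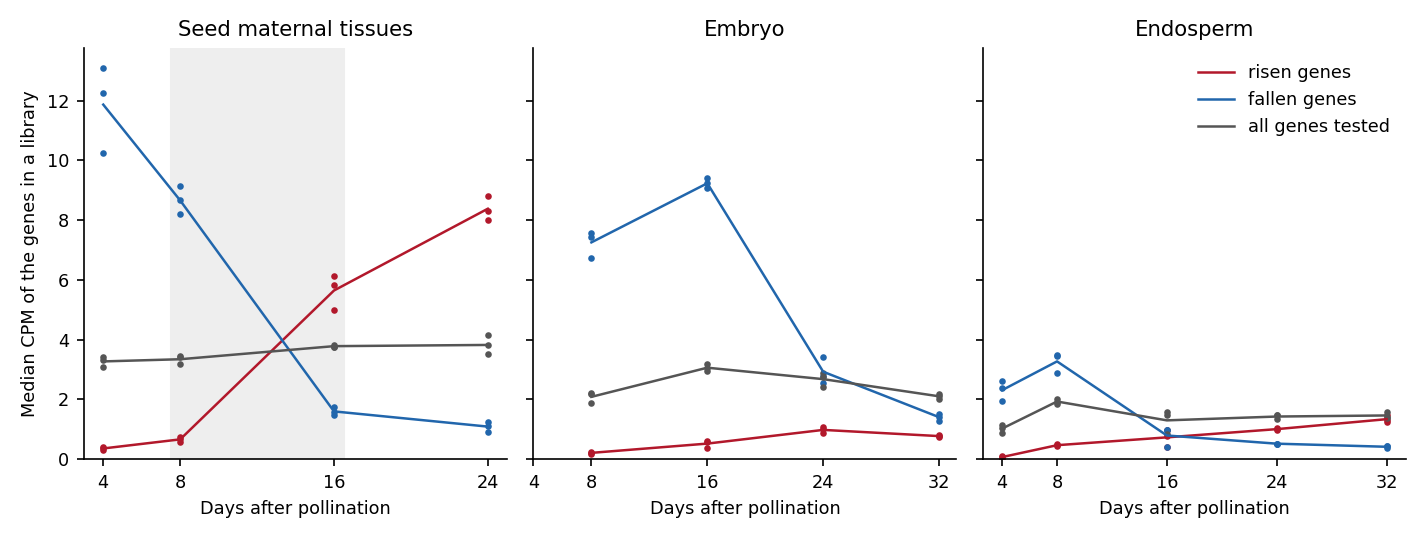
Median CPM of the 2718 risen genes (red), the 2518 fallen genes (blue) and all 29594 genes tested (grey) in each library, against days after pollination, for the 3 tissues. Points are libraries and lines join the means of 3 libraries. Shading marks the interval that chose the genes. In the maternal tissues the risen genes reach 8.38 CPM at 24 DAP, and in the embryo the fallen genes are still at 9.23 CPM at 16 DAP.

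Each library was also set against calls made without it. For each of the 6 libraries, genes were called without it, and it was then placed between the mean of its own stage and that of the other stage, with 0 for its own stage and 1 for the other. Its own side of the midpoint was taken for 93.3%, 97.0% and 84.0% of the called genes by replicates 1, 2 and 3 at 8 DAP, and for 76.2%, 87.4% and 91.0% by replicates 1, 2 and 3 at 16 DAP. The median position ran from -0.0159 to 0.111. All 6 libraries thus lay on the side their labels give for most genes. Replicate 1 at 16 DAP did so least often. Replicate 3 at 8 DAP, whose library number lies in another block than those of replicates 1 and 2, had a median position of 0.111.

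Some library-number blocks could also be compared at the called genes. No group of tissue and stage holds libraries from both sides of the maternal split, so that split itself was not measured. In the 24 DAP embryo, replicates 1 and 2 carry numbers from a block without maternal libraries. Replicate 3 carries one from the block of the 16 DAP maternal libraries. Its median log2 difference from the other two was 0.03 over risen genes, -0.06 over fallen genes and 0.08 over all genes tested, each counted at a mean of 1 CPM or more. At 8 DAP, maternal replicate 3 differed from replicates 1 and 2 by a median of 0.19 over risen genes and -0.12 over fallen genes. Over all genes tested this difference was 0.03. The largest offsets lay in the other tissues. Replicate 3 of the 16 DAP endosperm differed from its companions, which lie in another block, by -0.12 over risen and -0.36 over fallen genes, and replicate 3 of the 16 DAP embryo by 0.25 and -0.05. Over all genes tested the offsets were -0.05 in that endosperm library and 0.04 in that embryo library. Replicate 3 of the 8 DAP embryo, 8 DAP endosperm and 24 DAP endosperm, each in another block than its companions, differed by 0.12, 0.17 and 0.06 over risen genes. Over fallen genes these offsets were -0.03, -0.07 and 0.07, and over all genes tested -0.02, 0.08 and 0.09.

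Embryo and endosperm libraries of 8 and 16 DAP showed what these genes did in the other tissues. The levels in these libraries did not enter the maternal contrast, though they shared its filter, scaling and estimate of spread. In the embryo, 16.7% of all genes tested were called between these stages, 11.8% rising and 4.93% falling. Of the risen maternal genes, 634 (23.3%) rose in the embryo and 124 (4.56%) fell there. Of the fallen maternal genes, 344 (13.7%) fell in the embryo and 456 (18.1%) rose. More of the genes that fell in the maternal tissues were thus called rising than falling in the embryo, as was also so over all genes tested. Their median level in the embryo was 7.25 CPM ± 0.443 at 8 DAP and 9.23 ± 0.165 at 16 DAP, and it dropped to 2.92 ± 0.455 only at 24 DAP (n = 3 each).

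In the endosperm, 23.2% of all genes tested were called between 8 and 16 DAP, 10.1% rising and 13.1% falling. Of the risen maternal genes, 783 (28.8%) rose there and 153 (5.63%) fell. Of the fallen maternal genes, 1019 (40.5%) fell in the endosperm and 171 (6.79%) rose. In the endosperm the fallen genes had a median level of 3.27 CPM ± 0.346 in the 8 DAP libraries and 0.785 ± 0.341 in those of 16 DAP (n = 3 each). Replicate 3 of the 16 DAP endosperm was the lowest of its stage, at 0.391 CPM. Changes called in the same direction in all 3 tissues were found for 325 risen genes (11.96%) and 274 fallen genes (10.9%). Over all genes tested, 3.10% rose and 2.23% fell in both embryo and endosperm.

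**Figure D3:**
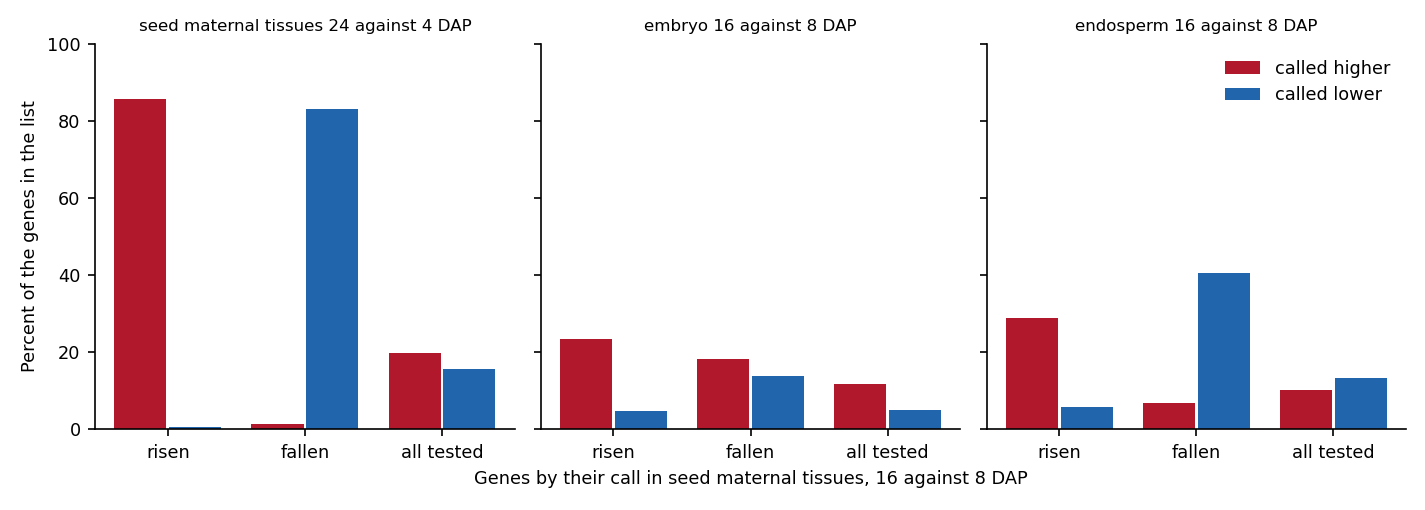
Percent of the risen, the fallen and all genes tested that were called higher (red) or lower (blue) in libraries outside the 8 to 16 DAP maternal comparison. Left, maternal tissues at 24 against 4 DAP; middle, embryo and right, endosperm at 16 against 8 DAP. The bars reach 85.5% and 82.9% in the left panel. In the middle panel 18.1% of fallen genes are called higher against 13.7% lower, and of all genes tested 11.8% against 4.93%.

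Whether the maternal change differed from that of another tissue was tested gene by gene as a difference of changes. It differed from the embryo's in 4763 genes, 16.1% of those tested. In 1427 (4.82%) the maternal change was the higher and in 3336 (11.3%) the lower. It differed from the endosperm's in 4217 genes, 14.2% of those tested, in 2407 higher (8.13%) and in 1810 lower (6.12%). Under the library-number term these numbers were 1748 and 999, and with library size alone the number for the endosperm was 6473. Most embryo and endosperm libraries of 8 and 16 DAP share a library-number block across the stages, while the maternal stages share none. An offset between blocks would thus enter mainly the maternal change, so these differences cannot tell tissue from block. Of the risen genes, 314 (11.6%) rose more than in both other tissues, and 519 of the fallen genes (20.6%) fell more than in both. These genes were chosen for a large maternal change, which favours such results. The shares over all genes tested were not taken, so 11.6% and 20.6% cannot be read as traits of these genes. Opposite calls were found in the embryo for 124 risen (4.56%) and 456 fallen genes (18.1%). In the endosperm they were found for 153 risen (5.63%) and 171 fallen genes (6.79%). All of these also passed the test of the difference, which opposite calls from the same model nearly ensure. Over all genes tested, 4.93% fell and 11.8% rose in the embryo, and 13.1% fell and 10.1% rose in the endosperm.

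Among genes with opposite calls and at least 50 CPM in the maternal tissues, the largest difference from the embryo on the rising side was that of HORVU.MOREX.r3.3HG0246790.1. It had 0.0648, 0.451 and 0 CPM in the maternal libraries at 8 DAP and 30.1, 119 and 130 CPM at 16 DAP (log2 fold change 8.95, SE 0.91, edgeR adjusted p = 1.92e-08). In the embryo it went from 45.3, 98.5 and 111 CPM down to 25.6, 9.10 and 9.85 CPM (log2 fold change -2.67, SE 0.63, edgeR adjusted p = 0.0018). The groups did not overlap in either tissue, and the difference of changes was 11.62 (SE 1.11, edgeR adjusted p = 6.92e-09). The 8 DAP level rests on at most 13 counts in a library. Without replicate 2 at 8 DAP the maternal log2 fold change was 11.08, and with the library-number term it was 10.38. In the endosperm it was highest at 4 DAP, with 144, 183 and 322 CPM. Levels at 24 DAP were 42.3, 16.0 and 12.9 CPM in the maternal tissues, so its maternal maximum was at 16 DAP among the stages sampled.

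On the falling side the largest fitted difference from the embryo was that of HORVU.MOREX.r3.1HG0003780.1, described above, which had 0 counts in the embryo at 8 DAP and 0.501, 1.04 and 1.38 CPM at 16 DAP (edgeR adjusted p = 0.00155 for the embryo and 2.19e-08 for the difference of changes). Its fitted folds rest on groups at 0 counts and depend on the prior count. Next by fitted difference was HORVU.MOREX.r3.6HG0618250.1. It fell in the maternal tissues from 63.2, 72.0 and 65.8 CPM to 1.66, 3.57 and 2.29 CPM (log2 fold change -4.82, SE 0.57, edgeR adjusted p = 6.26e-07). The embryo had 0.0656, 0 and 0 CPM at 8 DAP and 4.70, 16.6 and 16.7 CPM at 16 DAP (edgeR adjusted p = 1.14e-07). It was thus a maternal transcript at 8 DAP and more abundant in the embryo at 16 DAP. The difference of changes had an edgeR adjusted p of 1.34e-09. Under the library-number term, its maternal log2 fold change of -3.64 (SE 1.31) did not pass (edgeR adjusted p = 0.134).

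Against the endosperm, the largest difference on the rising side was again that of HORVU.MOREX.r3.3HG0246790.1. It had 3.21, 4.73 and 2.34 CPM in the endosperm at 8 DAP and 0.392, 0 and 0.880 CPM at 16 DAP (log2 fold change -2.33, SE 0.84, edgeR adjusted p = 0.0333), and the difference of changes was 11.28 (SE 1.21, edgeR adjusted p = 8.24e-08). Next came HORVU.MOREX.r3.2HG0168570.1. It rose in the maternal tissues from 0.648, 0.763 and 1.38 CPM to 39.8, 71.6 and 81.3 CPM (log2 fold change 6.02, SE 0.69, edgeR adjusted p = 7.88e-08). The endosperm went from 10.1, 8.09 and 8.07 CPM to 0.914, 3.45 and 1.17 CPM (log2 fold change -1.82, SE 0.60, edgeR adjusted p = 0.0186). The order of the tissues was thus reversed between the stages, and the difference of changes was 7.84 (SE 0.90, edgeR adjusted p = 1.69e-07). The endosperm was back at 37.5, 24.7 and 33.8 CPM at 32 DAP.

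HORVU.MOREX.r3.2HG0138420.1 had the largest difference from the endosperm on the falling side. It had a high level early, with 9014, 9375 and 11354 CPM at 4 DAP. At 8 DAP it had 1282, 1311 and 1361 CPM, and at 16 DAP 9.002, 10.2 and 9.46 CPM (log2 fold change -7.20, SE 0.41, edgeR adjusted p = 8.11e-14). At 24 DAP 2.27, 2.34 and 2.30 CPM were left. The replicates of each stage lay close together, and each later stage was lower than the one before. In the endosperm it was low throughout, at 1.26, 0.839 and 0.637 CPM at 8 DAP and 1.11, 6.12 and 3.33 CPM at 16 DAP, and these values overlapped although the gene was called rising (log2 fold change 2.46, SE 0.40, edgeR adjusted p = 1.27e-05). Under the library-number term, the maternal change was -5.14 on the log2 scale (SE 2.77, edgeR adjusted p = 0.385).

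**Figure D4:**
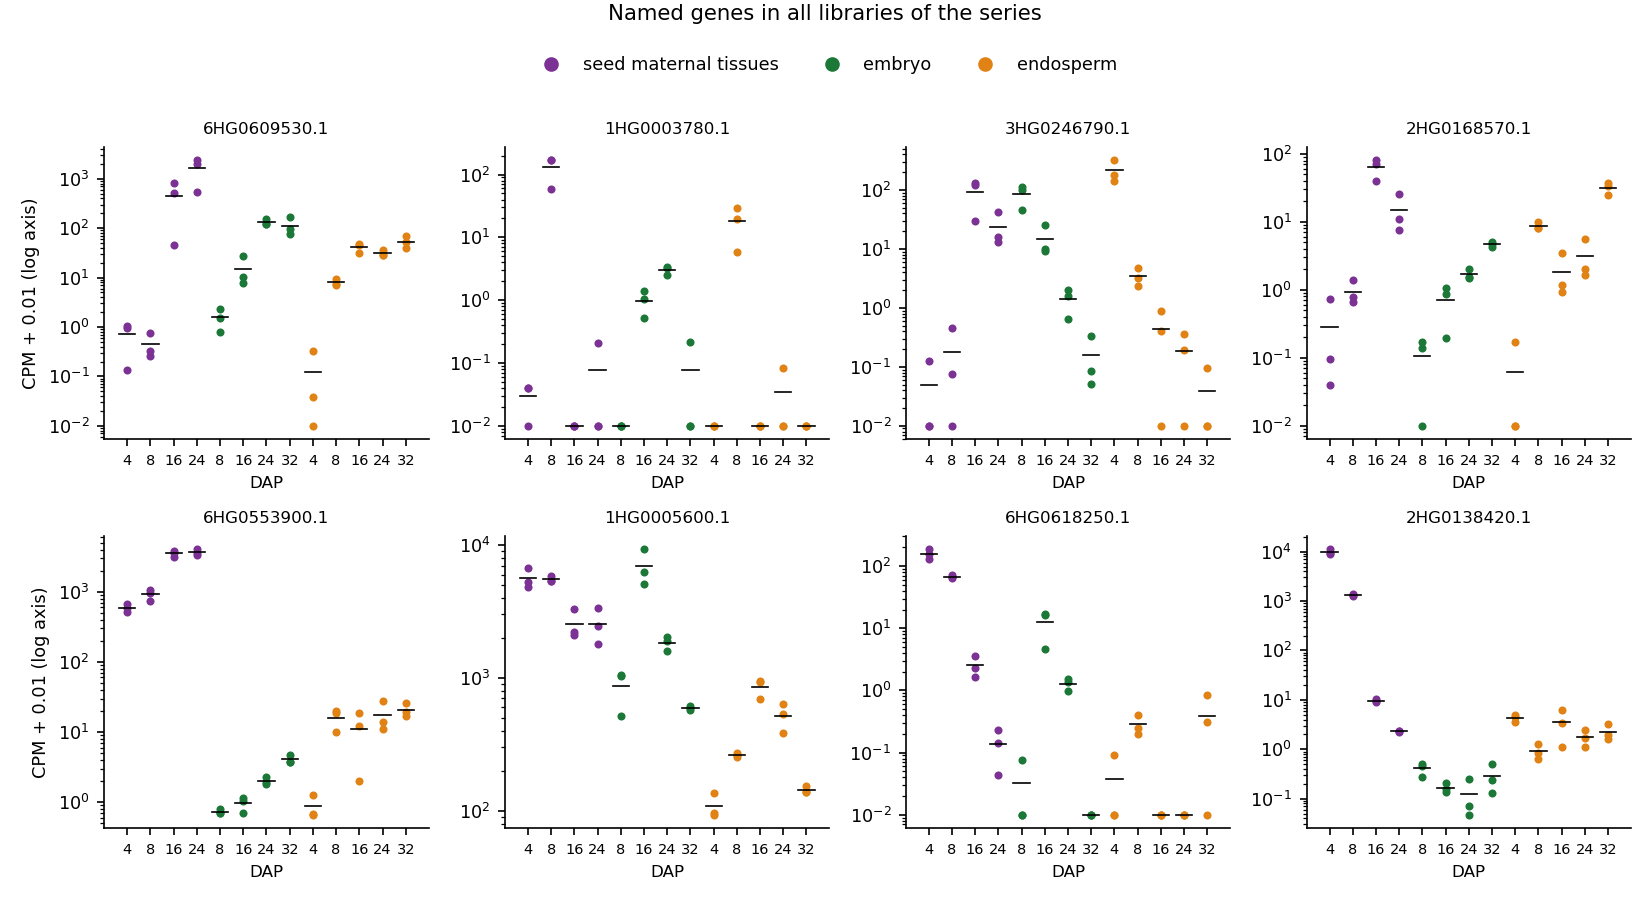
CPM with 0.01 added, on log axes, of the 8 named genes in all 39 libraries, by tissue (colour) and days after pollination (x axis). Points are libraries and bars are means of 3. The identifiers are shortened by their common prefix. In the left column are the genes that rose most, next to them those that fell most, and in the right columns those with opposite changes in embryo or endosperm.

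At 16 DAP the risen genes were mostly highest in the maternal tissues, and at 8 DAP the fallen genes were mostly highest in the maternal tissues or the embryo. Of the risen genes, 69.4% had a higher mean at 16 DAP in the maternal tissues than in embryo and endosperm, against 42.2% of all genes tested. Below 1 CPM in both other tissues were 1077 of them (39.6%, against 31.2% of all genes tested). Of the fallen genes, 48.4% were highest in the maternal tissues at 8 DAP (41.5% of all genes tested) and 41.9% in the embryo (32.6%). The maternal libraries that enter these levels also chose the genes, so the shares are a description.

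A dissected maternal sample can carry endosperm or embryo along, so genes of those tissues were followed in the maternal libraries. The lists were taken from libraries of the other tissues alone. They set no limit on the maternal level, so they can hold genes that the maternal tissues express themselves. The endosperm list held 101 genes called higher in endosperm than embryo at 8 and 16 DAP, with at least 50 CPM in endosperm and at most 1 CPM in embryo. Its summed level in the maternal libraries was 438, 565 and 722 CPM at 8 DAP and 449.6, 989.7 and 1051 CPM at 16 DAP. The stages overlapped, and the ratio of the means was 1.44 (exact two-sided permutation test, p = 0.3, with 0.1 the smallest p that 3 against 3 libraries allow). Without replicate 1 at 16 DAP, the lowest of its stage, the ratio was 1.78. Restricted to the 41 genes with at least 200 CPM in endosperm, it was 5.02 (exact two-sided permutation test, p = 0.3). Set against the sum in the endosperm of the same stage, the level of all 101 genes was 0.440% at 8 DAP and 0.243% at 16 DAP. Of the 101 genes, 51 averaged below 1 CPM over the 6 maternal libraries and 1 had at most 3 counts in all of them. Between the stages, 39 rose, 4 fell and 58 were not called, with a median log2 fold change of 1.32 (0 over all genes tested).

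The embryo list held 38 genes chosen in the same way with the tissues exchanged. Its summed level was 465, 496 and 415 CPM at 8 DAP and 219.8, 266 and 275 CPM at 16 DAP, without overlap, a ratio of the means of 0.553 (exact two-sided permutation test, p = 0.1). With 200 CPM as the minimum, 4 genes were left and the ratio was 0.0368. Set against the sum in the embryo of the same stage, the level of the 38 genes was 5.64% at 8 DAP and 3.83% at 16 DAP. Of the 38 genes, 3 rose, 12 fell and 23 were not called, 18 averaged below 1 CPM and 8 had at most 3 counts in each library. One more list was taken from maternal libraries of 4 and 24 DAP and held 9 genes at 50 CPM or more there and at most 1 CPM in endosperm at 4 and 24 DAP and embryo at 24 DAP. These 9 summed to 1369, 1372 and 1464 CPM at 8 DAP and to 778, 1367 and 1384 CPM at 16 DAP. Of these 9 genes, 1 fell and 8 were not called. Replicate 1 at 16 DAP was again the library that stood apart, and the ratio of the means was 0.839 with it and 0.981 without it.

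The endosperm and embryo lists made up 42 of the risen genes (1.55%) and 16 of the fallen (0.635%). These lists held 101 and 38 of the 29594 genes tested. Of the 101 genes of the endosperm list 39 rose, while 9.18% of all genes tested did. Without the genes of both lists, 2676 risen and 2502 fallen genes remained. A further measure was the excess of the other tissue. At 16 DAP, 59 of the risen genes (2.17%) were at least 100-fold higher in endosperm than in the maternal tissues, and these carried 0.388% of the counts of the risen genes in maternal libraries. Of the fallen genes, 42 (1.67%) were at least 100-fold higher in the embryo at 8 DAP. Such shares were not taken over all genes tested. The 10 risen genes most abundant in the 16 DAP endosperm took 25.2% of the endosperm counts and 0.0216% of the maternal ones. The part of carried-over tissue in the changes of any of these genes was not tested.

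**Figure D5:**
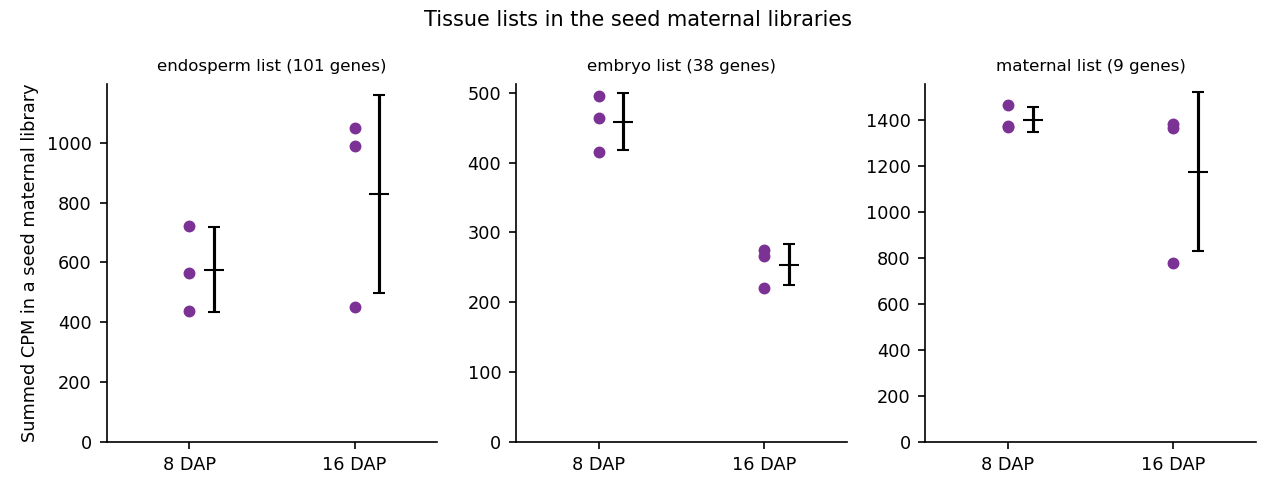
Summed CPM of the endosperm, embryo and maternal lists (101, 38 and 9 genes) in each of the 6 seed maternal libraries. Points are libraries, and bars beside them give the mean and SD of 3. The embryo list falls without overlap, while for the endosperm and maternal lists replicate 1 at 16 DAP lies below the other two libraries of its stage.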

How the data were processed

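Members, lists and tests were chosen with earlier results of these data known. Per the labels' protocols, poly-A selected RNA was sequenced as single-end 100-base reads. The submitters' processing notes name HISAT2 2.1.0, SAMtools and Subread 1.5.2; settings, use of strand and genome build are not given in the sources used here. The deposited values are raw read counts per transcript entry, as whole numbers, not pooled and not normalized by the authors. The 1873 genes with several entries may share reads; 130 of their 4176 entries were called. The reference table for MorexV3 matched 0 identifiers, so no names, functions or sequences are given.

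CPM was computed over library totals. With edgeR 4.0.16 (limma 3.58.1, R 4.3.3), genes passing filterByExpr over the 13 groups were fitted in 1 model of all 39 libraries (TMM factors, robust glmQLFit, 26 residual degrees of freedom). Genes were called where the Benjamini-Hochberg adjusted p was under 0.05 and the log2 fold change was 1 or more in size. Changes in tissues were compared as contrasts of the same model. SEs derive from the F statistic. The scripts were tested on simulated data. DESeq2 1.42.0 served as an alternative.

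Named genes had at least 100 CPM at the higher stage and stages without overlap, and the largest change in log2 or in CPM; genes with opposite calls needed 50 CPM, and where one was named already, the next is given too. The floor of 3 counts covers counting error only, as reads lacked molecular identifiers.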

Additional observations from a re-analysis of the deposited data

Results flagged for a closer look

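The measured change from 8 to 16 DAP was not the same in the 3 tissues. It differed between seed maternal tissues and embryo in 4763 genes and between seed maternal tissues and endosperm in 4217 genes, by a test of the difference itself (edgeR quasi-likelihood test of the difference of changes, adjusted p under 0.05 and at least 1 on the log2 scale). Only the maternal stages lie in fully separate library-number blocks, so these differences cannot tell tissue from block.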

How the results depend on the processing

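With the library-number term, 498 genes rose and 795 fell, the differences from embryo and endosperm numbered 1748 and 999, the shares of risen genes also rising in embryo and endosperm were 45.2% and 51.2%, and that of fallen genes also falling in embryo was 23.4%. Standard errors were larger in that fit. Without a fold minimum, 3822 genes fell, and 22.7% of them fell in embryo. With library size alone, 6473 changes differed from the endosperm; the cause was not tested. In the other alternatives these counts and shares stayed within 1.5 times their reported values. With a minimum of 200 CPM, the ratios of the endosperm and embryo lists moved from 1.44 to 5.02 and from 0.553 to 0.0368. Other scalings shifted the median log2 fold change by at most 0.09. Leaving out any 1 maternal library gave 2040 to 2519 risen and 2151 to 2472 fallen genes, and risen genes higher at 24 DAP made up 84.0% to 88.5%. The 8 named genes kept their direction throughout, and 4 of them lost their call with the library-number term only. The numbers of replicates do not pair the libraries: deviations of libraries with the same number correlated at 0.024, 0.10 and -0.023, and with a replicate block 2620 genes rose and 2484 fell. Genes below 1 CPM rest on few counts.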

Other observations

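The identifiers carry a chromosome label and a running number. Risen genes made up between 8.19% (chromosome 4H) and 10.1% (3H) of the genes tested with the label of a numbered chromosome. Fallen genes made up between 7.73% (6H) and 9.24% (2H). Of the 157 genes tested with the label Un, 1.27% rose and 3.18% fell. Among 29183 genes with a following gene on the same chromosome label, the next tested gene in number order was risen for 17.2% of the risen genes and for 9.24% of all genes. It was fallen for 14.6% of the fallen genes and for 8.56% of all. Runs of at least 4 successive tested genes with the same call numbered 17 for risen (75 genes) and 12 for fallen genes (55 genes). The longest had 7 fallen genes, on 6H, with a median log2 fold change of -4.05, and the longest risen runs had 6 genes, on 5H (median 4.38) and 6H (3.52). How reads were divided between near-identical copies of a gene is not stated.

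Replicates at 16 DAP varied more than those at 8 DAP at a mean of 1 CPM or more, with a median coefficient of variation of 18.5% over 18299 genes against 14.0% over 17864 genes. HORVU.MOREX.r3.2HG0124630.1, singled out after its values were seen, shows how 1 library can decide a call. It had 63.0 CPM in replicate 1 at 16 DAP against 0.639 and 0.806 in replicates 2 and 3, and 2.04, 1.60 and 3.55 CPM at 8 DAP. It was called rising with a log2 fold change of 3.04 (edgeR adjusted p = 0.0122), and without that library it was called falling, at -1.82 (edgeR adjusted p = 0.00919).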
